A study of Mus musculus with 8 samples.

Results

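Oxidative phosphorylation is carried out by 5 protein complexes of the inner mitochondrial membrane whose subunits are made from both the mitochondrial and the nuclear genome. Its genes were taken as every gene of the normalized count table whose symbol starts with mt-Nd, mt-Co, mt-Atp, mt-Cyt, Nduf, Uqcr, Cox4 to Cox8 or Atp5, or is Sdha, Sdhb, Sdhc or Sdhd, leaving out 6 pseudogene symbols that contain -ps. This gave 103 of 36670 genes, of which 13 are encoded by the mitochondrial genome and 90 by the nuclear genome. The nuclear members comprise 44 of complex I, 4 of complex II, 8 of complex III, 18 of complex IV and 16 of complex V, and the mitochondrial members comprise 7, 0, 1, 3 and 2. The rule used symbols only and no measured value.

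RNA was sequenced from 4 Control tumors and 4 IMQNP tumors. All 8 grew from HCA-1 cells, a mouse hepatocellular carcinoma line, implanted under the liver capsule of male C3H mice that were 6 to 8 weeks old according to the labels, while the methods of the study give a younger age. The IMQNP mice received PFSUV-IMQ, the Toll-like receptor 7 agonist imiquimod in phospholipid-free vesicles, by intravenous injection on day 17, and the Control mice received saline, with harvest 3 h later. Free imiquimod and empty vesicles were not sequenced, so the drug and its carrier cannot be told apart here, and HCA-1 is 1 line. The tumors hold cells of the host besides HCA-1 cells, so that in these bulk samples fewer cells of a type and less RNA per cell cannot be told apart.

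In the respiratory chain, complexes I and II pass electrons from NADH and succinate to coenzyme Q, complex III passes them to cytochrome c, and complex IV reduces oxygen to water. Complexes I, III and IV pump protons out of the matrix, and complex V, the ATP synthase, makes ATP as protons flow back. The mitochondrial genome is transcribed as long polycistronic RNA from both strands and is cut into single mRNAs at the transfer RNAs between them. The nuclear subunits are instead transcribed from separate genes spread over the chromosomes. Complex II is the member of the chain with no mitochondrially encoded subunit. Hepatocytes are rich in mitochondria, and imiquimod is itself known to inhibit complex I in addition to activating Toll-like receptor 7.

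Total counts per tumor were 16883911 to 27687756 in the Control group and 17008151 to 18527613 in the IMQNP group, and the authors' counts were scaled here by library size to normalized CPM with edgeR's TMM factors. The floor of detection was set at 3 counts, 0.105 to 0.210 CPM per tumor at these depths, for counting error alone. IMQNP tumor 2 had the lowest TMM factor, 0.843, against 0.981 to 1.09 in the other tumors. The summed level of 10 hepatocyte markers was 10131, 14565, 35118 and 4571 CPM in Control tumors 1, 3, 4 and 5 and 6641, 37104, 10126 and 9878 CPM in IMQNP tumors 1 to 4. It was thus highest in IMQNP tumor 2 and lowest in Control tumor 5, and the groups overlapped. The 7 markers of HCA-1 or fetal liver summed to 1578, 1372, 1274 and 2135 CPM in Control tumors 1, 3, 4 and 5. In IMQNP tumors 1 to 4 they summed to 2058, 1008, 1805 and 1519 CPM. This sum was highest in Control tumor 5 and lowest in IMQNP tumor 2, and the groups overlapped. Among these markers, Krt18 stood at 550 to 1256 CPM and Krt8 at 444 to 941 CPM. These genes made up nearly all of the sum in each tumor, so it mainly follows them and was not shown to measure HCA-1 content. Afp stood at 2.10 to 6.08 CPM and Gpc3 at 0.629 to 1.99 CPM, low but above the floor in every tumor. IMQNP tumor 1 had 8016 CPM in 7 fibroblast and smooth muscle markers, against 2377 to 4196 CPM in the other tumors.

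How much of the RNA came from each genome was compared tumor by tumor. The 13 mitochondrial mRNAs took 2.09, 4.33, 3.87 and 1.25% of all counts in Control tumors 1, 3, 4 and 5. In IMQNP tumors 1 to 4 they took 1.46, 6.11, 3.33 and 4.86%. Control tumor 5 and IMQNP tumor 1 were the lowest and IMQNP tumor 2 was the highest, with a 4.87-fold range over the 8 tumors, and the groups overlapped. The means were 2.89 ± 1.46% and 3.94 ± 2.0% (SD, n = 4 each), a difference of 1.05 percentage points that was smaller than the pooled SD of 1.75. The difference was 0.328 points without IMQNP tumor 2, 0.507 without Control tumor 5 and 1.88 without IMQNP tumor 1. The mitochondrial ribosomal RNAs, counted apart from the mRNAs, had the same highest and lowest tumor, at 6239 and 997 CPM for mt-Rnr1 plus mt-Rnr2.

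The 90 nuclear members were far more even. They took 0.683, 0.777, 0.855 and 0.810% of counts in the Control tumors and 0.680, 0.729, 0.726 and 0.628% in the IMQNP tumors, a 1.36-fold range. Control tumor 4 was the highest and IMQNP tumor 4 the lowest, and the groups overlapped. The means were 0.781 ± 0.0728% and 0.691 ± 0.0473%, a difference of -0.0903 percentage points against a pooled SD of 0.0614. On the TMM scale the nuclear members summed to 7449 ± 697 CPM in the Control group and 7302 ± 969 CPM in the IMQNP group, and IMQNP tumor 2 was then the highest at 8661 CPM. The distance between the groups in the nuclear share therefore depended on the scaling.

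**Figure D1:**
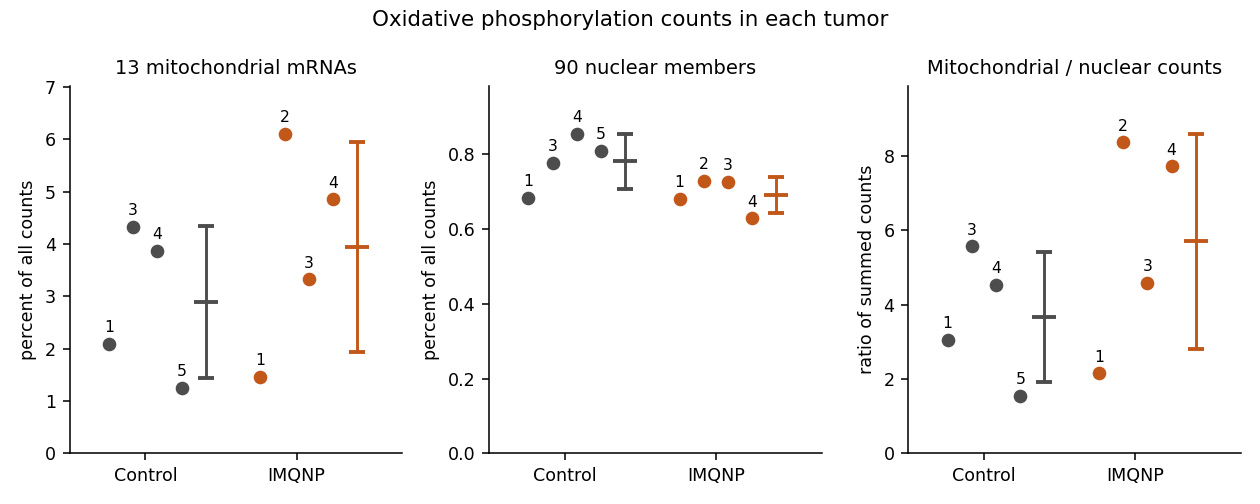
Share of all counts in the 13 mitochondrial mRNAs (left, percent), in the 90 nuclear members (middle, percent) and the ratio of these summed counts (right), with 1 point per tumor labelled by its replicate number and bars for the group mean ± SD (n = 4). The mitochondrial share spans 1.25 to 6.11% while the nuclear share stays between 0.628 and 0.855%, and the groups overlap in all 3 panels.

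The ratio of mitochondrial to nuclear counts needs no library scaling. It was 3.06, 5.57, 4.53 and 1.55 in the Control tumors and 2.15, 8.38, 4.58 and 7.73 in the IMQNP tumors. IMQNP tumors 2 and 4 lay above every Control tumor, IMQNP tumor 1 lay below 3 of the 4, and the groups overlapped. On the log2 scale the IMQNP mean was higher by 0.60, less than the pooled SD of 0.86, and this difference was 0.24 without Control tumor 5, 0.36 without IMQNP tumor 2, 0.40 without IMQNP tumor 4 and 1.01 without IMQNP tumor 1. The tumors with the lowest hepatocyte marker sums, Control tumor 5 and IMQNP tumor 1, also had the lowest ratios. The order was not shared throughout, since Control tumor 4 had a marker sum near that of IMQNP tumor 2 and a ratio of 4.53, and IMQNP tumor 4 combined a sum of 9878 CPM with a ratio of 7.73. The part of hepatocyte content in the ratio was not tested.

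Compared per kilobase of exon, 7 of the 13 mitochondrial mRNAs stood far above the rest. The mRNA of mt-Co1, the catalytic core of complex IV, averaged 9850 CPM per kilobase over the 8 tumors, followed by mt-Cytb, the cytochrome b of complex III, at 4383 and by the complex I core subunits mt-Nd1 at 4282, mt-Nd6 at 3233, mt-Nd2 at 2476, mt-Nd4 at 2008 and mt-Nd5 at 1992. The 6 consecutive mRNAs between mt-Co1 and mt-Nd4 stood at 99.7 CPM per kilobase for mt-Co2, 15.0 for mt-Atp8, 72.0 for mt-Atp6, 72.3 for mt-Co3, 7.08 for mt-Nd3 and 8.36 for mt-Nd4l. Even the lowest tumor of the 7 abundant mRNAs, 592 CPM per kilobase for mt-Nd2, lay above the highest tumor of these 6, 177 for mt-Co3, so the split did not depend on the spread between tumors. All 6 together made up 0.366 to 0.643% of the mitochondrial mRNA counts, while mt-Co1 alone made up 37.6 to 48.0%. The most abundant nuclear member per kilobase, Cox6b1 at 198, exceeded all 6, and the median nuclear member stood at 34.0. Exon length was that of all annotated transcripts of a gene merged, so levels and ranks of nuclear members per kilobase depend on the annotation. Atp5b, at 178, was divided by 4237 bases and Cox6b1 by 708.

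The stretch of low counts coincided with a nuclear copy of the same sequence. A segment of mouse chromosome 1 (chr1:24611535-24616197, GRCm38, 4663 bases, minus strand) holds 7 annotated pseudogenes, which are copies of mt-Co1, mt-Co2, mt-Atp6, mt-Co3, mt-Nd3, mt-Nd4l and mt-Nd4 in the mitochondrial order. Aligned to their mitochondrial genes, 5 of the 7 copies had 0 mismatches, over 681, 678, 783, 294 and 876 bases for mt-Co2, mt-Atp6, mt-Co3, mt-Nd4l and mt-Nd4. The mt-Nd3 copy had 1 mismatch in 345 bases and the mt-Co1 copy, which covers 31.8% of the gene, had 6 in 492. The starts of these 2 copies are shown because they hold every difference between the aligned genes, marked by capitals, beyond which the letters of both genomes are the same. The mitochondrial stretches are chrM:6381-6450 and chrM:9459-9528 on the plus strand, and the copies Gm29216 and Gm28438 are chr1:24616128-24616197 and chr1:24613050-24613119 on the minus strand, all read from GENCODE M21 transcripts of GRCm38.
mt-Co1: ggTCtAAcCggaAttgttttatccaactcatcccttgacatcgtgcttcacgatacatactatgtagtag
Gm29216: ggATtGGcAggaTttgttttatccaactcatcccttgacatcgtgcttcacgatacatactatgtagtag
mt-Nd3: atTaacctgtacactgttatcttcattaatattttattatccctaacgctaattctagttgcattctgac
Gm28438: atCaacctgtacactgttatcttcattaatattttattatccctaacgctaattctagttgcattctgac

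Shared sequence was measured as the share of all 50-base words of an mRNA that another annotated gene also holds. It was 100% for mt-Co2, 99.5% for mt-Atp6, 99.9% for mt-Co3, 98.0% for mt-Nd3 and 98.8% for mt-Nd4l, which are 5 of the 6 mRNAs with low counts. It was 62.2% for mt-Nd4 and 51.1% for mt-Co1, 8.19% for mt-Nd2, 7.61% for mt-Nd5 and 0% for mt-Nd1, mt-Nd6 and mt-Cytb, the 7 with high counts. The exception was mt-Atp8, an accessory subunit of the ATP synthase that shares a bicistronic mRNA with mt-Atp6. It shared 0% of its words and still had 14 to 106 counts per tumor. No gene is annotated on the 233 bases of chromosome 1 between the copies of mt-Atp6 and mt-Co2 (chr1:24614652-24614884), where a copy of mt-Atp8 would lie in this order, and 21.1% of its exon bases overlap mt-Atp6. How the counting treated reads with several equal matches or with 2 overlapping genes is not given in the sources used here, and its part in these levels was not tested.

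**Figure D2:**
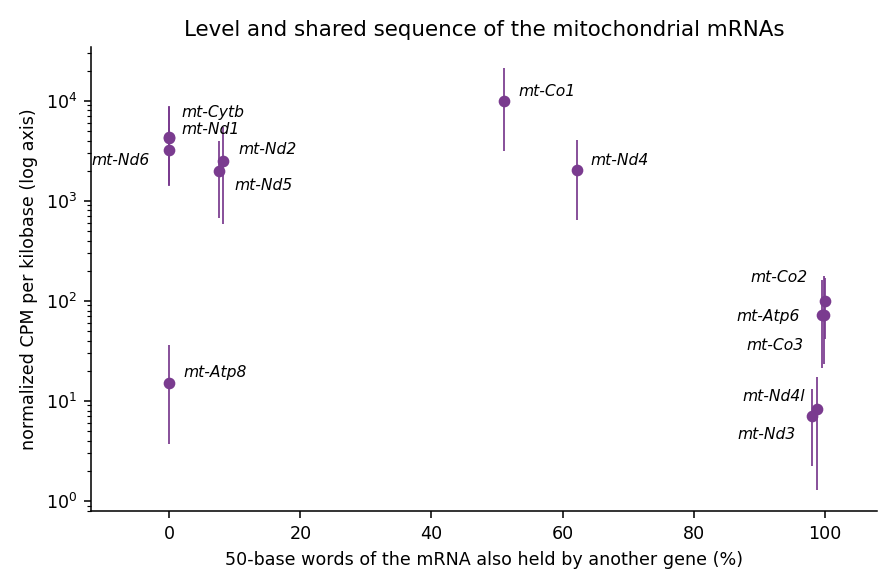
Mean level over the 8 tumors of each mitochondrial mRNA (vertical axis, normalized CPM per kilobase of exon, log scale, with lines from the lowest to the highest tumor) against the percentage of its 50-base words that another annotated gene holds (horizontal axis). The 5 mRNAs with at least 98.0% of words shared lie between 7.08 and 99.7 CPM per kilobase, and mt-Atp8 at 0% shared lies among them at 15.0.

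The copies themselves received counts in every tumor. Of the counts given to mt-Co2 or its copy Gm28661, 44.0 to 65.9% were assigned to mt-Co2, and the range was 21.4 to 56.6% for mt-Atp6 with Gm10925, 39.5 to 54.7% for mt-Co3 with Gm28437, 14.4 to 24.4% for mt-Nd3 with Gm28438 and 15.5 to 37.8% for mt-Nd4l with Gm10222. The shares were 98.7 to 99.6% for mt-Nd4 with Gm28439 and 99.0 to 99.8% for mt-Co1 with Gm29216, which have unshared stretches. The levels and fold changes of the 5 mRNAs with nearly complete sharing, and of mt-Atp8, are therefore uncertain. The same limit applies in part to mt-Nd4 and mt-Co1, with 62.2% and 51.1% of words shared. The mitochondrial share of counts and its ratio to the nuclear members carry this limit too. The gene mt-Nd6 lies on the strand opposite to the other 12 and overlaps mt-Nd5 over 2.70% of its exon bases. Whether the counting used strand is not given in the sources used here, so reads of mt-Nd6 and of the opposite strand cannot be told apart. The level and fold change of mt-Nd6, counted here among the abundant mRNAs, are therefore uncertain too.

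Between tumors, the proportions of the abundant mitochondrial mRNAs varied 1.27-fold for mt-Co1, 1.26-fold for mt-Cytb, 1.23-fold for mt-Nd1 and 1.25-fold for mt-Nd4. They varied 1.33-fold for mt-Nd5, 1.80-fold for mt-Nd2 and 1.88-fold for mt-Nd6. The 13 mRNAs together varied 4.87-fold as a share of all counts. A proportion is bounded by its total, so its smaller range follows in part from the measure. Of the mitochondrial mRNA counts, mt-Co1 took 37.6 to 45.7% in Control and 42.3 to 48.0% in IMQNP tumors, mt-Cytb 12.6 to 15.0% and 13.3 to 15.9%, and mt-Nd1 11.2 to 13.1% and 10.7 to 12%. Among the 13 mRNAs, the share of mt-Nd5, a proton-pumping core subunit of complex I, was the one whose groups did not overlap. It was 11.6, 11.2, 10.8 and 10.8% in Control tumors 1, 3, 4 and 5 and 9.09, 9.91, 8.72 and 10.7% in IMQNP tumors 1 to 4, so every IMQNP tumor was below every Control tumor, by a margin as small as that between Control tumor 5 and IMQNP tumor 4. In normalized CPM, 3.28% of all tested genes were lower and 6% higher in the IMQNP tumors without overlap, and 0 of these 13 mRNAs were either. A proportion is another measure, so these rates are not a background for it. The 13 shares are parts of 1 total and thus not independent. The share of mt-Nd5 was singled out after its values were seen and was not tested.

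Between the groups, no member passed the test. Of the 101 members with enough counts, the quasi-likelihood test of edgeR, with p adjusted by Benjamini-Hochberg over all 15998 genes, called 0 at an adjusted p under 0.05. Of all genes 2.68% were called, 2.46% as higher and 0.219% as lower, and the smallest adjusted p of a member was 0.242. The Wald test of DESeq2 also called 0 members, against 5.51% of all genes. At an unadjusted p under 0.05, 3 members were found where 13% of all genes were. They were mt-Co3 and mt-Co2, higher like 8.34% of all genes, and Atp5s, lower like 4.65%. The members not tested were Cox6a2 and Cox8b, isoforms of striated muscle, which did not pass the filter on low counts.

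All 13 mitochondrial mRNAs had a log2 fold change above 0, from 0.28 to 1.29 with a median of 0.65, where the median of all tested genes was -0.03. None passed the test and the groups overlapped in all 13. Leaving out IMQNP tumor 2 gave a median of 0.27 with 10 of 13 above 0, and leaving out Control tumor 5 gave 0.39 with 12 of 13 above 0. IMQNP tumor 2 held the highest value of 11 of the 13 mRNAs and Control tumor 5 the lowest of 12. As these mRNAs come from common precursors in the same tumors, their shared sign is not 13 independent observations.

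The values of mt-Co1 (chrM:5328-6872) show the pattern of the abundant mRNAs. It had 9169, 18742, 14082 and 4875 CPM in Control tumors 1, 3, 4 and 5 and 7088, 32484, 14060 and 21248 CPM in IMQNP tumors 1 to 4. IMQNP tumors 2 and 4 lay above all Control tumors, IMQNP tumor 1 lay below 3 of them and IMQNP tumor 3 was level with Control tumor 4. The group means were 11717 ± 6007 and 18720 ± 10845 CPM (SD, n = 4 each), a log2 difference of 0.68 (standard error 0.54, adjusted p = 0.703 in edgeR). For mt-Cytb the means were 3884 ± 2109 and 6145 ± 3432 CPM, a log2 difference of 0.66 (standard error 0.55), and for mt-Nd6 1394 ± 610 and 1962 ± 808 CPM, with 0.49 (standard error 0.42). The other 4 abundant mRNAs, mt-Nd1, mt-Nd2, mt-Nd4 and mt-Nd5, had log2 fold changes of 0.57, 0.51, 0.65 and 0.44, with standard errors of 0.55, 0.65, 0.54 and 0.55.

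The largest differences were in mRNAs whose sequence is shared with chromosome 1, and so were the smallest, those of mt-Nd3 and mt-Nd4l. The subunit mt-Co3 of complex IV (chrM:8607-9390) had 22.4, 52.1, 38.9 and 18.3 CPM in the Control tumors and 37.7, 138.7, 51.6 and 93.9 CPM in the IMQNP tumors. The IMQNP tumors 2 and 4 exceeded every Control tumor, while the other two lay within the Control range. Its log2 fold change was 1.29 (standard error 0.45, unadjusted p = 0.0183, adjusted p = 0.242 in edgeR). The subunit mt-Co2, which receives the electrons of cytochrome c (chrM:7013-7696), had 34.5, 70.6, 55.1 and 28.2 CPM in the Control tumors and 35.6, 109.6, 116.0 and 96.0 CPM in the IMQNP tumors. Here 3 of the 4 IMQNP tumors exceeded every Control tumor and IMQNP tumor 1 did not. Its log2 fold change was 0.92 (standard error 0.40, unadjusted p = 0.0433, adjusted p = 0.358 in edgeR), and that of mt-Atp6, the subunit of the proton channel, was 1.21 (standard error 0.55, adjusted p = 0.405). The other mRNAs with low counts were mt-Atp8, mt-Nd3 and mt-Nd4l, with log2 fold changes of 0.81, 0.33 and 0.28 and standard errors of 0.60, 0.53 and 0.74. Over the 6 mitochondrial mRNAs with under 10% of words shared the median log2 fold change was 0.54, and over those and the nuclear members of the same kind the ratio of the genomes was higher in the IMQNP tumors by 0.55 on the log2 scale, with overlapping groups.

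**Figure D3:**
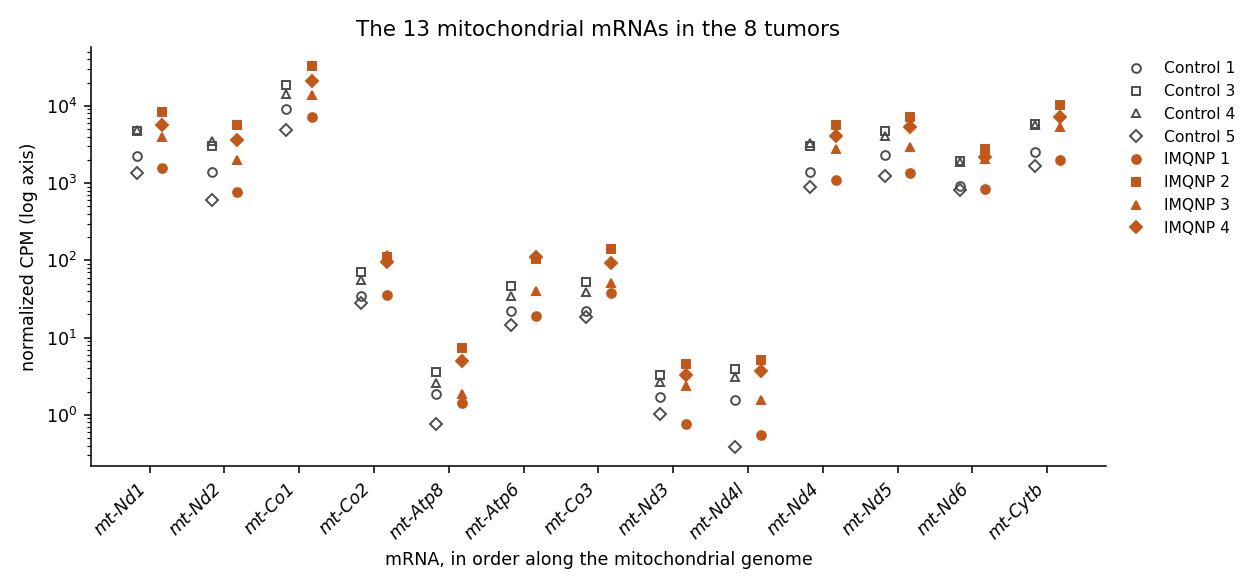
Normalized CPM (log scale) of the 13 mitochondrial mRNAs, in their order along the mitochondrial genome, with 1 symbol per tumor (open grey for Control, filled orange for IMQNP). IMQNP tumor 2 (filled squares) is the highest for 11 mRNAs and Control tumor 5 (open diamonds) the lowest for 12, and the 6 mRNAs from mt-Co2 to mt-Nd4l lie far below the other 7.

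Among the 88 tested nuclear members, 46 had a log2 fold change above 0 and 42 below, with a median of 0.01 and a range from -0.59 to 0.39, and under upper-quartile normalization 27 were above 0 and the median was -0.07. Without IMQNP tumor 2, 19 of 89 tested members were above 0 and the median was -0.11. Without Control tumor 1 it was 22 of 88 with a median of -0.06, and without IMQNP tumor 3 it was 42 of 89 with a median of -0.015. The direction of the nuclear members as a whole thus depended on the scaling and on single tumors of both groups, and the median stayed between -0.11 and 0.08 with any tumor left out. In complex II, all 4 members lay below 0 in each of the 4 normalizations tried, while with a tumor left out 0 to 2 of the 4 lay above 0. In complex IV 14 of 16 lay above 0, a count that was 11 with upper-quartile normalization, 8 of 16 without Control tumor 1 and 7 of 17 without IMQNP tumor 2.

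**Figure D4:**
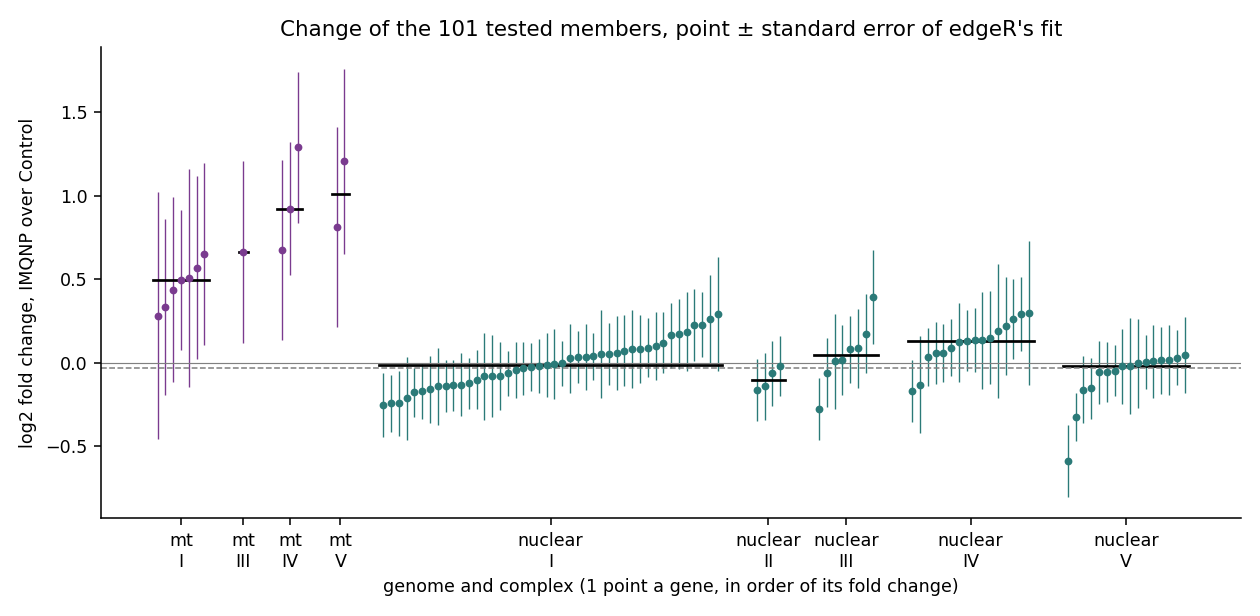
Log2 fold change of IMQNP over Control for the 101 tested members (vertical axis), 1 point per gene with its standard error from edgeR, grouped by genome (mt, mitochondrial) and complex, with a black line at each group's median and a dashed line at the median of all tested genes, -0.03. All 13 mitochondrial points lie above 0 with wide errors, and the 88 nuclear points scatter between -0.59 and 0.39.

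The 44 nuclear members of complex I had a median log2 fold change of -0.01, with 20 above 0 and a range from -0.25 to 0.29. The 7 core subunits, which carry the flavin and the iron-sulfur clusters, were the steadiest class, with a median SD between tumors of a group of 0.184 on the log2 scale. Of the 8 assembly factors (Ndufaf genes), 7 lay below 0 in all 4 normalizations tried, with a median of -0.15, and 0 passed the test.

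Of the supernumerary subunits of complex I, which surround the core, the most abundant per kilobase was Ndufa8 (chr2:36036326-36049406), at 63.9 ± 7.71 CPM in the Control and 62.9 ± 8.81 CPM in the IMQNP tumors. The lowest log2 fold changes were those of Ndufb8 and Ndufv3, -0.25 (standard error 0.19) and -0.24 (standard error 0.17). The highest were those of Ndufa1 and Ndufa3, 0.29 (standard error 0.34) and 0.26 (standard error 0.26). Their adjusted p values in edgeR were 0.639 to 0.811.

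Complex II, succinate dehydrogenase, also serves the tricarboxylic acid cycle. Its flavoprotein Sdha (chr13:74322254-74350280) had 142.6, 143.1, 199.5 and 140.2 CPM in the Control tumors and 149.3, 180.7, 113.3 and 123.3 CPM in the IMQNP tumors. Control tumor 4 stood apart from the other Control tumors, which lay within 3 CPM of each other, and the groups overlapped. The log2 fold change was -0.14 (standard error 0.20). For the iron-sulfur subunit Sdhb it was -0.16 (standard error 0.19) and for the membrane anchor Sdhd -0.06 (standard error 0.20).

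In complex III, the core protein Uqcrc2 had the lowest log2 fold change, -0.28 (standard error 0.19, adjusted p = 0.629 in edgeR), and 19.7% of its exon bases overlap Pdzd9. The highest was that of Uqcrq, a small subunit that binds near cytochrome b, at 0.39 (standard error 0.28, adjusted p = 0.658), the highest among nuclear members. Uqcrq had 58.5, 91.6, 97.1 and 76.9 CPM in the Control tumors and 71.5, 169.6, 99.9 and 84.2 CPM in the IMQNP tumors. IMQNP tumor 2 alone lay well above the Control range, and without it the log2 fold change was 0.06. The core protein Uqcrc1, the small subunit Uqcr11 and the hinge protein Uqcrh, the most abundant of the complex per kilobase, had log2 fold changes of -0.06, 0.17 and 0.02, with standard errors of 0.21, 0.24 and 0.21.

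Complex IV holds Ndufa4, once assigned to complex I and now counted as a subunit of cytochrome c oxidase. Ndufa4 (chr6:11900292-11907497) had 66.4, 93.6, 122.7 and 84.2 CPM in Control tumors 1, 3, 4 and 5 and 65.7, 153.8, 99.0 and 88.5 CPM in IMQNP tumors 1 to 4. IMQNP tumor 2 was the highest and IMQNP tumor 1 the lowest, as for the ratio of the genomes within that group, and the groups overlapped. The means were 91.7 ± 23.6 and 101.8 ± 37.4 CPM, a log2 difference of 0.15 (standard error 0.28, adjusted p = 0.901 in edgeR), and without IMQNP tumor 2 it was -0.14. The log2 fold change was 0.29 for Cox6a1 (standard error 0.22), -0.17 for Cox7a2l, which joins complexes III and IV into supercomplexes (standard error 0.18), and -0.13 for Cox7b (standard error 0.29). Cox6b1, the most abundant nuclear member per kilobase of merged exons, had 138.8 ± 16.0 CPM in the Control and 142.1 ± 24.1 CPM in the IMQNP tumors.

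Complex IV also has isoforms restricted to certain tissues or states, which were compared with their common partners per kilobase. The size of each percentage depends on the annotated exon lengths, while its order over the tumors does not. Ndufa4l2, an isoform known to be induced by low oxygen, stood at 25.9, 25.9, 14.8 and 41.1% of Ndufa4 in the Control tumors and 56.9, 16.8, 22.4 and 20.3% in the IMQNP tumors. The percentage was highest in IMQNP tumor 1 and Control tumor 5, the tumors with the lowest mitochondrial share, and lowest in Control tumor 4 and IMQNP tumor 2, those with the highest hepatocyte marker sums. Ndufa4 itself was highest in IMQNP tumor 2 and next highest in Control tumor 4, so a low percentage there need not mean little Ndufa4l2. In normalized CPM, Ndufa4l2 was lowest in Control tumor 1, and in IMQNP tumor 2 it lay above Control tumors 1, 3 and 4. IMQNP tumor 1 also had the highest fibroblast and smooth muscle marker sum, 8016 CPM, and Control tumor 5 the highest of the Control tumors, 3271 CPM, and the part of either marker list was not tested. Cox4i2, also responsive to oxygen, stood at 0.902 to 3.36% of Cox4i1 in the Control and 1.75 to 3.19% in the IMQNP tumors. The heart and muscle isoform Cox7a1 was at 1.78 to 4.52% of Cox7a2 and the testis isoform Cox6b2 at 0.197 to 0.481% of Cox6b1 over all tumors. Cox6a2 was at 0.356 to 1.09% of Cox6a1, and 10.3% of its exon bases overlap Itgad. Cox8b had no count in any Control tumor and at most 0.140 CPM in the IMQNP tumors, below the floor, so no fold is given. Markers of striated muscle summed to at most 0.993 CPM in any tumor. The 4 tested isoforms had log2 fold changes of 0.13 to 0.30, and 0 passed the test.

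Complex V held the only members whose groups did not overlap. There were 2 of 101, both lower in the IMQNP tumors, where 3.28% of all genes were lower without overlap, and 0 were higher, against 6% of all genes. Atp5c1 (chr2:10056016-10080510) encodes the gamma subunit, the shaft that turns within the catalytic head. It had 213.6, 211.3, 210.2 and 208.5 CPM in the Control tumors and 192.3, 171.7, 146.4 and 163.0 CPM in the IMQNP tumors. The Control tumors were nearly identical and each IMQNP tumor lay below them, with means of 210.9 ± 2.15 and 168.4 ± 19.1 CPM, a log2 difference of -0.33 (standard error 0.14, unadjusted p = 0.050, adjusted p = 0.385 in edgeR).

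Atp5s (chr12:69724950-69744660), named for its link to the ATP synthase as coupling factor B, was the member with the lowest log2 fold change. It had 6.27, 6.32, 9.54 and 6.57 CPM in the Control tumors and 4.80, 4.75, 4.68 and 4.85 CPM in the IMQNP tumors. The IMQNP tumors were nearly level, and Control tumor 4 stood above the other Control tumors. The log2 fold change was -0.59 (standard error 0.22, unadjusted p = 0.0225, adjusted p = 0.267 in edgeR), and with each tumor left out in turn it was -0.65 to -0.42. Atp5b, the catalytic beta subunit and the most abundant nuclear member of the complex per kilobase, had 797.5 ± 86.6 and 712.2 ± 144.5 CPM, a log2 difference of -0.16 (standard error 0.20). Atp5g2 and Atp5g3, which encode the same subunit of the rotating ring, had log2 fold changes of 0.03 and 0.05.

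The members differed most in how much they varied between tumors of the same group. The pooled SD within groups had a median of 0.961 on the log2 CPM scale for the 13 mitochondrial mRNAs, with a range from 0.709 to 1.36, and of 0.272 for the 88 tested nuclear members, with a range from 0.0827 to 0.653. The ranges did not overlap. Ranked among all 15998 tested genes, whose median was 0.367, the mitochondrial mRNAs lay between the 85.2 and the 97.5 percentile, and the median nuclear member lay at the 29.0 percentile. For the 6 mitochondrial mRNAs with under 10% of words shared the median was 0.970. Accordingly the median standard error of a log2 fold change was 0.55 for mitochondrial and 0.20 for nuclear members. In simulated counts, the changed genes were drawn at random from all 15998 tested genes and not from the members. With the dispersions of these tumors, the test recovered 10 of 100 genes changed by 1 on the log2 scale and 72 of 100 changed by 2. With a dispersion of 0.05 for every gene it recovered 67 and 99 of 100. As the 2 genomes differ in spread, these rates do not give the recovery for either class of members. A missing call does not show that a member was unchanged.

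**Figure D5:**
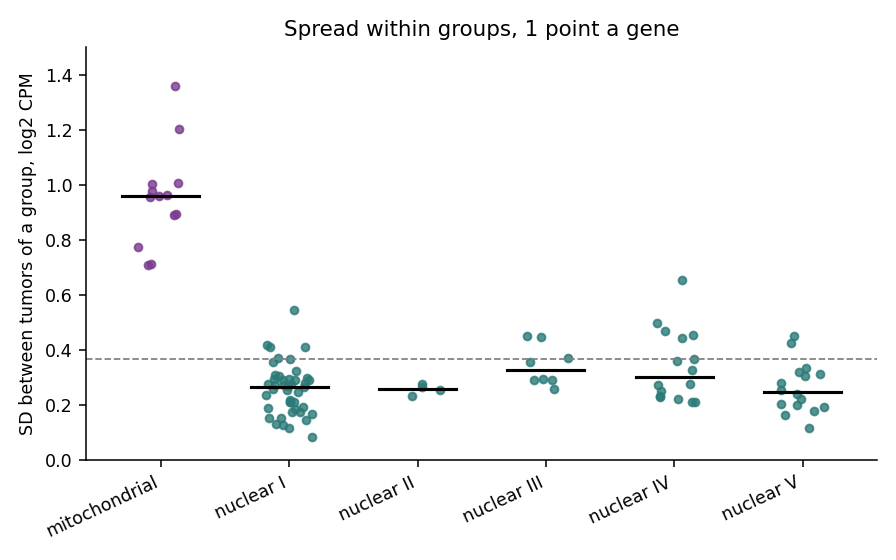
SD between tumors of the same group, pooled over the groups, on the log2 CPM scale (vertical axis) for each tested member, by genome and complex, with a black line at each median and a dashed line at the median of all tested genes, 0.367. The 13 mitochondrial mRNAs lie at 0.709 and above, and all nuclear members at 0.653 and below.

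Many nuclear members share sequence motifs near their start sites. Promoter windows of 300 bases, 250 before and 50 after each annotated start, were available in the RefSeq table of GRCm38.p6 for 74 of the 90 nuclear members and for 27025 genes in all, and a gene was counted if any of its windows held the motif on either strand. The core palindrome of the NRF1 motif, 10 letters of which the sixth may be any base, was found for 18 members (24.3%) and 5.19% of all genes. The letters CCGGAAG, the core bound by ETS factors such as GABP, were found for 18 members (24.3%) and 9.93% of all genes, and AAGATGGC, a form of the YY1 motif, for 11 (14.9%) and 3.19%. At least 1 of these 3 was found for 40 members (54.1%) and 16.4% of all genes. The letters TATAAA were found for 6 members (8.11%) and 15.7% of all genes. The comparison is with every gene of that table, whether expressed in these tumors or not. A gene with more annotated starts also had more windows that could match. The percentages therefore do not show that the motifs are particular to these members. The ETS and YY1 letters can overlap at AAG, and a match is a description of the sequence only. The 250 bases before the start of Cox6a1 (chr5:115348959-115349208, minus strand, GRCm38.p6, from RefSeq) are shown because they hold 2 NRF1 matches, 162 and 117 bases before the start, and an ETS match on the other strand 16 bases before it, all in capitals. GENCODE M21 counts the last 23 of these bases as part of the gene.
Cox6a1: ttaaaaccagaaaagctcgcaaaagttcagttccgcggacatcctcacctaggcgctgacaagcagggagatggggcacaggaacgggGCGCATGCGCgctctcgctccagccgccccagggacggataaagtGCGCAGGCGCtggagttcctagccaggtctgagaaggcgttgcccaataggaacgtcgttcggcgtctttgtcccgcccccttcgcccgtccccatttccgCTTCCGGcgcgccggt

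Genes that serve the same pathway were counted in 5 lists of their own. Of 35 genes for mitochondrial transcription and for RNA and DNA maintenance, 1 passed the test as higher and 0 as lower, where 2.46% of all genes passed as higher, so the count of the list was near the background. The gene was Pnpt1 (chr11:29130744-29161828), a mitochondrial polynucleotide phosphorylase that trims and degrades RNA and is known as an interferon-inducible gene. It had 44.7, 42.5, 38.5 and 22.1 CPM in Control tumors 1, 3, 4 and 5 and 60.0, 154.2, 88.7 and 137.9 CPM in IMQNP tumors 1 to 4, so the groups did not overlap. The log2 fold change was 1.57 (standard error 0.33, adjusted p = 0.0375 in edgeR), and the call was lost when any tumor other than IMQNP tumor 1 was left out, with adjusted p values up to 0.110. None of 41 further assembly factors, 23 electron carriers and carriers of ADP and phosphate, 27 enzymes of the tricarboxylic acid cycle and pyruvate entry, and 77 proteins of the mitochondrial ribosome passed the test, while 7, 1, 1 and 4 of them had an unadjusted p under 0.05, where 13% of all genes did. DESeq2 called 1 gene among the electron carriers, Pdss1, and 0 in the other 3 lists. The median log2 fold changes of the 5 lists were -0.13, -0.11, -0.15, -0.12 and -0.08, against -0.03 for all tested genes and 0.01 for the nuclear members.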

How the data were processed

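RNA was prepared from 8 HCA-1 tumors as poly(A)-selected libraries (KAPA mRNA HyperPrep kit). The authors deposited whole-number counts of reads per gene, which were the input of every test. They also deposited a table of signal values made with DESeq2 by dividing the counts of each tumor by a size factor, used here only to define the genes and to match identifiers. The study's methods name TopHat and HTSeq, whereas the submitters' processing notes name Trimmomatic 0.38, HISAT2 2.1.0 and featureCounts 2.0.0, so which tools made the counts cannot be told. Genome build, strand setting and the treatment of multiply matching reads are not given in the sources used here. All 55536 gene identifiers are in GENCODE M21 (GRCm38), which gave coordinates, exon lengths (merged over the transcripts of a gene) and transcripts. The groups share replicate numbers 1, 3 and 4, but nothing states that these link tumors, and the deviations of same-numbered tumors correlated at 0.294, -0.268 and -0.316, so no block was used.

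Counts were analysed in R 4.3.3 with edgeR 4.0.16 (TMM, default filter on low counts, quasi-likelihood test, Benjamini-Hochberg adjustment over 15998 genes, calls at an adjusted p under 0.05), with limma 3.58.1 installed beside it. DESeq2 1.42.0 was an alternative, and tables and figures were made in Python 3.11.15 with pandas 2.3.3, numpy 2.4.6 and matplotlib 3.10.9. The fit was tested on simulated counts of 15998 genes. Log2 CPM used a prior count of 2. Values are mean ± SD of 4 tumors. The p-values of edgeR weigh the difference between groups against the spread between tumors, estimated with information from all tested genes. Each pair of tumors in a group differed beyond sampling noise (chi-square per degree of freedom of 29.4 and above). Depth per tumor, 16883911 to 27687756 counts, set a floor of 3 counts. No test was made on sums or medians over the members.

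The members and lists were chosen with earlier results of these data known. Genes named by rule were the mitochondrial mRNAs, mt-Co1 and Ndufa4, per nuclear complex the most abundant member per kilobase and the 2 largest log2 fold changes in each direction, 6 isoform pairs, and called genes of the neighbouring lists. Of 37 symbols written for mitochondrial transcription and maintenance, 35 matched. Alternatives were other normalizations (DESeq2's size factors, upper quartile, library sizes without mitochondrial genes), other filters, a fold limit, DESeq2, a block for the replicate number, other denominators and weightings, each tumor left out in turn, and, added after seeing the data, members with under 10% of 50-base words shared.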

Additional observations from a re-analysis of the deposited data

Results flagged for a closer look

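Single tumors far from the other 3 of their group, by Dixon's criterion at the 95% level, were found in 4 of 96 gene and group combinations examined (4.17%), and chance flags about 1 in 20. Sdha stood at 199.5 CPM in Control replicate 4, against at most 143.1 CPM in the other Control tumors. Atp5s stood at 9.54 CPM in the same tumor, which enters its lower level in the IMQNP group, and its log2 fold change stayed below 0 with any tumor left out. Sdhd stood at 156.5 CPM in IMQNP replicate 2, the tumor with the highest hepatocyte marker sum. Atp5b stood at 928.7 CPM in IMQNP replicate 1, the tumor with the highest fibroblast and smooth muscle marker sum. No explanation of these values was tested.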

How the results depend on the processing

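Under each alternative, 0 members were called, and the smallest adjusted p of a member was 0.0695 (DESeq2, mt-Co3). The median log2 fold change of the mitochondrial members was 0.58 to 0.68 over the other normalizations, filters and DESeq2, and 0.27 to 0.94 with a tumor left out. That of the nuclear members was -0.07 to 0.02 and -0.11 to 0.08, and its sign depended on the scaling and was negative without Control replicate 1, IMQNP replicate 2 or IMQNP replicate 3. The mitochondrial share of counts differed by 0.328 to 1.88 percentage points, the nuclear share by -0.123 to -0.0658 and the log2 ratio of the genomes by 0.24 to 1.01 with a tumor left out, and the ratio by 0.55 to 0.61 under the other weightings. The numbers shared by the groups do not pair the tumors in the check above. Control replicate 5 and IMQNP replicate 2 have numbers that the other group lacks, so a block on the number also takes them out of the contrast, and they were the lowest tumor for 12 and the highest for 11 of the 13 mitochondrial mRNAs. With a replicate block the mitochondrial median was -0.07 (4 of 13 above 0) and the nuclear median -0.10 (24 of 88 above 0), while 821 genes were called in place of 429. DESeq2 called 882 genes, and leaving out a tumor gave 214 to 429.

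With the replicate block the log2 fold change had the other sign for mt-Nd1 (-0.18), mt-Nd2 (-0.46), mt-Co1 (-0.067), mt-Atp8 (-0.12), mt-Nd3 (-0.38), mt-Nd4l (-0.77), mt-Nd4 (-0.062), mt-Nd5 (-0.38), mt-Cytb (-0.042), Ndufa4 (-0.13), Ndufa1 (-0.18), Uqcrh (-0.065), Uqcr11 (-0.076), Cox6b1 (-0.077), Cox7a2l (0.023), Atp5g3 (-0.16) and Cox7a2 (-0.11). With upper-quartile normalization it had the other sign for Uqcrh (-0.058), Cox6b1 (-0.037), Atp5g2 (-0.044), Atp5g3 (-0.029) and Cox7a2 (-0.018). With a tumor left out it ranged across 0 for mt-Nd2 (-0.0093 to 0.85), mt-Nd3 (-0.043 to 0.64), mt-Nd4l (-0.22 to 0.70), Ndufa4 (-0.14 to 0.32), Ndufa8 (-0.11 to 0.058), Ndufa1 (-0.094 to 0.51), Sdhd (-0.26 to 0.013), Uqcrh (-0.10 to 0.13), Uqcrc1 (-0.17 to 0.053), Uqcr11 (-0.11 to 0.29), Cox6b1 (-0.069 to 0.11), Cox7b (-0.46 to 0.021), Atp5g2 (-0.042 to 0.16), Atp5g3 (-0.17 to 0.15), Cox6b2 (-0.048 to 0.35), Cox7a2 (-0.11 to 0.12), Cox8a (-0.023 to 0.15) and Ndufa4l2 (-0.10 to 0.38). The causes were not tested. In the neighbouring lists DESeq2 called 2 genes, the replicate block called 1 (Pdk2 in place of Pnpt1), and 0 to 1 were called with a tumor left out.

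Spread between tumors rather than depth limits the comparison of the 7 abundant mitochondrial mRNAs, which each had 11315 counts or more in every tumor. Few counts limit Cox6a2, Cox8b and, with as few as 14, 14 and 7 counts in a tumor, mt-Atp8, mt-Nd3 and mt-Nd4l. The parts of depth and of the way reads were counted in these low counts were not tested. Shared sequence makes the levels of mt-Co2, mt-Atp6, mt-Co3, mt-Nd3 and mt-Nd4l uncertain, and in part those of mt-Nd4 and mt-Co1.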
